A study of Homo sapiens with 16 samples.

Results

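Levels of the Ewing sarcoma surface genes CD99, STEAP1, IL1RAP, CAV1, ADGRG2, CLDN1 and TSPAN8 were followed on 16 Affymetrix arrays while the fusion oncogene EWS-FLI1 was silenced for up to 96 h. These genes encode proteins of the cell membrane or its inner face. They were taken as the probe sets (groups of short probes read together as 1 value) that the array's annotation assigns to exactly 1 symbol, that symbol being one of the 7. This gave 10 probe sets for 7 genes, of 19070 probe sets with 1 symbol for 11963 genes. All 10 passed the filter on low values (log2 4 or more on at least 2 arrays), which 7304 genes passed through their brightest probe set. The genes were selected on their known place in Ewing sarcoma and with their log2 changes against 0 h on these arrays known, so every change against 0 h below is a description and carries no test.

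A673 is an Ewing sarcoma cell line, and Asp14 is 1 clone of it that carries a doxycycline-inducible hairpin RNA against EWS-FLI1 and a repressor construct, both kept under drug selection. Every array, the 0 h arrays included, came from this clone. There were 4 arrays at 0 h, taken when doxycycline was added, 3 each at 18 h and 36 h of the drug, and 2 each at 53 h, 72 h and 96 h. All treated arrays had doxycycline at 1 µg per ml. All untreated arrays are of 0 h, so that hours in culture, exposure to the drug and silencing of the fusion cannot be told apart, and nothing in the labels says that replicates came from separate cultures. If they did not, the p-values below measure technical spread alone.

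EWS-FLI1 joins part of EWSR1 to the DNA-binding domain of FLI1, an ETS factor that reads the bases GGAA, and the fusion is known to activate genes from runs of GGAA repeats. CD99 is the surface glycoprotein whose membrane staining is used to recognise Ewing sarcoma. STEAP1 is a membrane antigen with several transmembrane spans, related to metalloreductases and used as an antibody target. IL1RAP is the co-receptor that interleukin-1 family receptors need to signal, and ADGRG2 (also called GPR64) is an adhesion G protein-coupled receptor. CAV1 coats caveolae, flask-shaped pits of the membrane, TSPAN8 is a tetraspanin, one of the small proteins that group other proteins in the membrane, and CLDN1 is a claudin of tight junctions.

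The sequence upstream of 4 of these genes is shown because the fusion reads GGAA, and because these 4 span the patterns described below, a decrease that began by 18 h and deepened until 72 h (STEAP1), a small early one (CAV1), a large early one (CLDN1) and almost none (CD99). Each line gives the 250 bases before the gene's start in RefSeq (build GRCh38.p14), read 5′ to 3′ on the gene's own strand, with every GGAA, or TTCC where it lies on the other strand, in capitals.
STEAP1, chr7:90154219-90154468, plus strand: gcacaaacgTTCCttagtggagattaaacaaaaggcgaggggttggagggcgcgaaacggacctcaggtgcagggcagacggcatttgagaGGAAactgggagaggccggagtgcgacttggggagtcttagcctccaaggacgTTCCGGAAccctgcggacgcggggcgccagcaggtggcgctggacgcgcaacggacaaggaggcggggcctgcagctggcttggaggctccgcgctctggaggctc
CAV1, chr7:116524759-116525008, plus strand: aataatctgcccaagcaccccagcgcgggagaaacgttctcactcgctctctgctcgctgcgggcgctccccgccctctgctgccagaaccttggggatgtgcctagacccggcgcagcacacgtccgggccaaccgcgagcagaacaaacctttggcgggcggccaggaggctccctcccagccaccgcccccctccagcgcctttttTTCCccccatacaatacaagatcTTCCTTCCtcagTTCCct
CLDN1, chr3:190322447-190322696, minus strand: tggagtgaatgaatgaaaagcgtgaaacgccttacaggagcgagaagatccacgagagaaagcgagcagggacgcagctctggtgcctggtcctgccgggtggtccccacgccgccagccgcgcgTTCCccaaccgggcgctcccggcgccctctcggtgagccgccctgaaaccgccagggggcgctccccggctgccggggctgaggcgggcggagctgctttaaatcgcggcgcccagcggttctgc
CD99, chrX:2691045-2691294, plus strand: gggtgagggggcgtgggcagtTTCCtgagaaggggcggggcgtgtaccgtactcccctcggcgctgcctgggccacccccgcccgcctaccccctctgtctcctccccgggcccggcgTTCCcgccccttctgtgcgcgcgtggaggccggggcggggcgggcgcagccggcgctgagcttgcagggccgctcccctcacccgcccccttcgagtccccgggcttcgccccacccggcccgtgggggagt
GGAA was searched on both strands, and matches may overlap those of the longer words. The STEAP1 and CAV1 windows held 4 matches each, those of IL1RAP and TSPAN8 held 3, that of CD99 held 2, and those of CLDN1 and ADGRG2 held 1 each. The ADGRG2 window (chrX:19122469-19122718, minus strand) precedes a start inside the gene, whose 5′ end in RefSeq is at 19122956. The other windows precede the 5′ end of their gene, so the ADGRG2 count is not of the same place. Of all 34943 windows of this length in the table, 92.7% held at least 1 match, with a median of 3. The doubled word GGAAGGAA occurred in the CAV1 window alone among the 7, against 3.06% of all windows, and ACCGGAAG, a word of the classical ETS site, in none of the 7, against 1.77% of all windows. A match is a run of letters and says nothing of binding.

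The brightest probe set for FLI1, the gene whose 3′ part the fusion carries, stood at 10.08 ± 0.07 (SD, n = 4) on the log2 scale at 0 h. Its change against 0 h was -3.20 at 18 h, then -3.67, -3.28, -3.08 and -3.35 at the later times. The other FLI1 probe sets averaged 7.25 and 5.23 at 0 h and lay under log2 4 on every doxycycline array. They were thus at least 9.53-fold and 2.35-fold lower at each treated time. These bounds are set by the 0 h levels and the log2 4 limit, so they cannot be compared as sizes of a fall. The level left read above log2 4 on the brightest set and under it on the others. Ewing markers were present, with 5 of 5 on the array above log2 4. Of the epithelial markers 1 of 7 reached log2 4 on any array (KRT18), EPCAM and CDH1 peaking at 2.87 and 2.26, so CLDN1 and TSPAN8 were read here in cells in which these 2 epithelial markers were not above log2 4. The summed epithelial level ran 8.79 to 9.75 at 0 h, 7.93 to 8.31 at 18 h, 7.27 to 7.91 at 36 h, 8.49 to 8.77 at 53 h, 10.03 to 10.08 at 72 h and 10.06 to 10.07 at 96 h. KDR, which alone of 5 endothelial markers reached log2 4, averaged 3.66, 3.97, 6.56, 8.57, 7.38 and 5.20 at the 6 times, while 0 of 4 blood markers reached it. The ACTB 3′ minus 5′ difference, a sign of RNA quality, was 2.09 to 2.45 at 36 h and 1.56 to 1.83 at 96 h, against 1.47 to 2.06 at 0 h. The part of these measures in the results was not tested. At 0 h, 18 h and 36 h replicates 2 and 3 were closer to each other than to replicate 1. Over the 7304 genes the SD of the difference between replicates 2 and 3 was 0.164 to 0.186 at these 3 times. For replicate 1 against either it was 0.415 to 0.528. Replicate 4 at 0 h differed from replicates 1, 2 and 3 by 0.456, 0.370 and 0.368. The arrays of 53 h, 72 h and 96 h differed within their time by 0.285, 0.234 and 0.390. The labels do not say whether replicates 2 and 3 are separate cultures. If they are not, SEs and p-values that use both are too small. Results that rest on the replicate 1 arrays are given with and without them. The arrays are of bulk RNA, in which fewer cells that express a gene and less of its RNA per cell cannot be told apart.

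STEAP1, IL1RAP, CAV1 and CLDN1 were lower on every doxycycline array than on every 0 h array from 18 h on. ADGRG2 joined them at 36 h, TSPAN8 at 53 h and CD99 at 96 h. The genes whose arrays did not overlap with those at 0 h, all lower, thus numbered 4, 5, 6, 6 and 7 of 7 at the 5 treated times in order. Of all 7304 genes, 20.4%, 33.1%, 39.2%, 44.9% and 40.3% were lower without overlap at these times. The choice of the genes used these contrasts, so nothing is read from the counts. Their median log2 change against 0 h was -0.38, -1.35, -1.75, -3.40 and -2.53, beside 0.015, 0.024, -0.014, -0.11 and -0.10 over all genes. CD99 and CAV1 had the smallest changes among the 7 at 96 h.

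**Figure D1:**
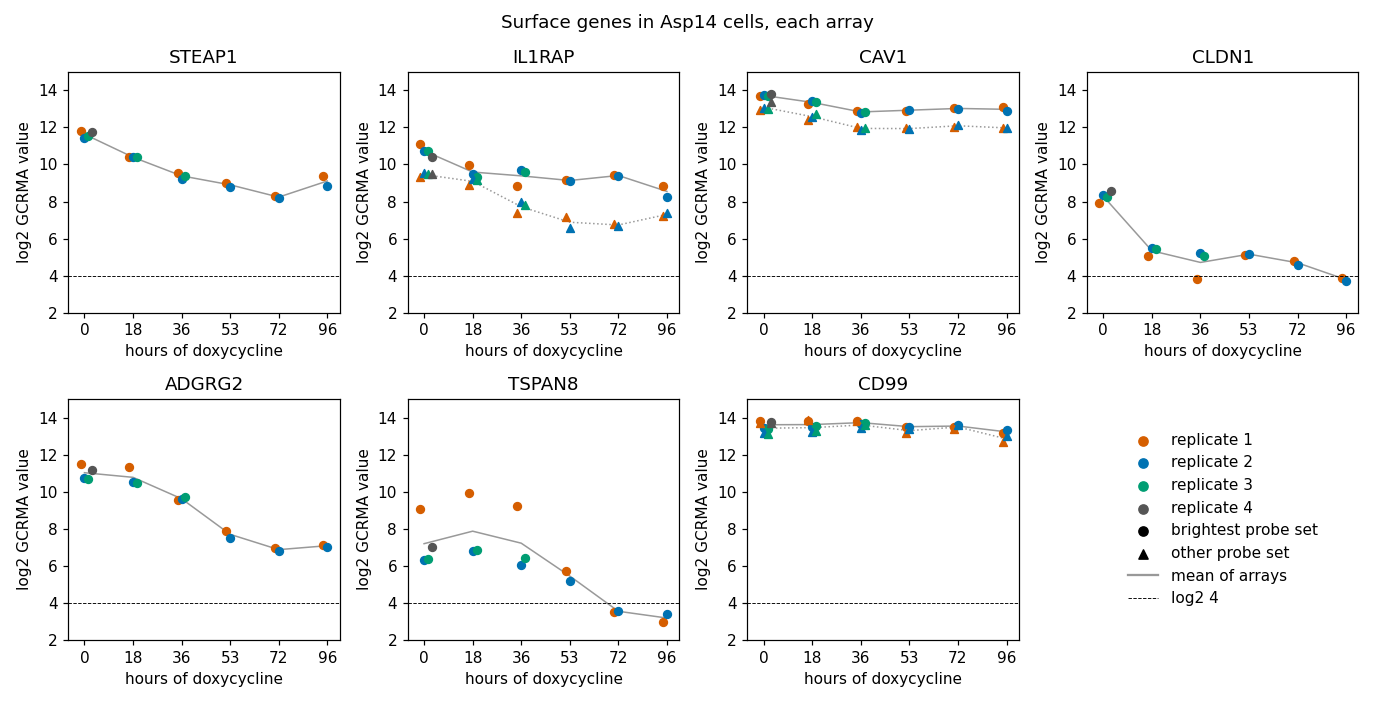
Level of each of the 10 probe sets on all 16 arrays (y axis, log2 GCRMA value, x axis, hours of doxycycline with the times evenly spaced), 1 point per array, coloured by replicate, with a line through the means of the times and a dashed line at log2 4. STEAP1, CLDN1 and ADGRG2 separate fully from 0 h by 36 h, whereas both CD99 probe sets stay within 12.67 to 13.88 on every array.

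CD99, the diagnostic marker, hardly moved. On its brighter probe set it read 13.83, 13.46, 13.39 and 13.78 at 0 h, 13.82, 13.51 and 13.54 at 18 h, 13.84, 13.67 and 13.69 at 36 h, 13.52 and 13.50 at 53 h, 13.50 and 13.59 at 72 h, and 13.15 and 13.31 at 96 h. Only the 96 h arrays lay below every 0 h array, and the arrays of the other times overlapped them. The second probe set read 13.70, 13.18, 13.12 and 13.71 at 0 h, 13.88, 13.22 and 13.28 at 18 h, 13.79, 13.43 and 13.59 at 36 h, 13.19 and 13.41 at 53 h, 13.41 and 13.58 at 72 h, and 12.67 and 13.03 at 96 h. Its changes against 0 h were 0.031, 0.17, -0.13, 0.068 and -0.58 at the 5 times, beside 0.0094, 0.12, -0.10, -0.069 and -0.38 for the brighter one (SE 0.11 with 3 arrays and 0.12 with 2). At 96 h the brighter set stood 1.31-fold below 0 h. At 96 h against 18 h the differences were -0.39 ± 0.13 (SE) on the brighter set and -0.61 on the other. No step between neighbouring times passed on the brighter set, the nearest being -0.32 ± 0.14 at 96 h against 72 h (adjusted p = 0.113).

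STEAP1, the metalloreductase-family antigen, was lower at each time up to 72 h than at the one before and then higher at 96 h. It read 11.81, 11.44, 11.52 and 11.77 at 0 h, 10.38, 10.41 and 10.38 at 18 h, 9.55, 9.23 and 9.38 at 36 h, 9.0 and 8.81 at 53 h, 8.30 and 8.18 at 72 h, and 9.39 and 8.83 at 96 h. No doxycycline array reached the lowest 0 h array, and the 72 h arrays were the lowest of all. Its changes against 0 h were -1.24 and -2.25 at 18 h and 36 h (SE 0.13), and -2.73, -3.40 and -2.53 at 53 h, 72 h and 96 h (SE 0.15), which is 10.5-fold at 72 h and 5.77-fold at 96 h. Against the preceding time it fell at 36 h by 1.01 ± 0.14 (SE, limma adjusted p = 8.75e-05) and at 72 h by 0.66 ± 0.17 (adjusted p = 0.0194). At 96 h it then rose against 72 h by 0.87 ± 0.17 (adjusted p = 0.00228). The step at 53 h was -0.48 (adjusted p = 0.0621). The 72 h call was lost without replicate 1 at 53 h (adjusted p = 0.156), replicate 1 at 72 h (0.0683) or replicate 2 at 72 h (0.12).

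IL1RAP, the interleukin-1 co-receptor, was read by a pair of probe sets whose time courses differed. The brighter one read 11.09, 10.70, 10.73 and 10.42 at 0 h, 9.97, 9.46 and 9.34 at 18 h, 8.84, 9.69 and 9.62 at 36 h, 9.14 and 9.13 at 53 h, 9.42 and 9.39 at 72 h, and 8.83 and 8.26 at 96 h. The other read 9.33, 9.54, 9.49 and 9.46 at 0 h, 8.90, 9.23 and 9.14 at 18 h, 7.36, 7.98 and 7.82 at 36 h, 7.19 and 6.57 at 53 h, 6.79 and 6.67 at 72 h, and 7.22 and 7.38 at 96 h. Both were below every 0 h array at all 5 times, the first mostly by 18 h and the second mostly between 18 h and 53 h. Changes against 0 h on the brighter set were -1.15, -1.35, -1.60, -1.33 and -2.19 (SE 0.22 with 3 arrays and 0.25 with 2), 4.57-fold at 96 h. On the other set they were -0.37, -1.73, -2.57, -2.72 and -2.15. At 36 h against 18 h the brighter set did not pass (-0.21 ± 0.24, SE, limma adjusted p = 0.51), while the other fell by 1.37 ± 0.17 (adjusted p = 3.86e-05) and again by 0.84 at 53 h against 36 h (adjusted p = 0.0138). The gap between the 2 sets averaged 1.66 at 36 h and 0.50 at 18 h, a difference of 1.16 with a two-sided exact permutation p of 0.10, the smallest that 3 arrays against 3 allow, in a comparison chosen after its values were seen. At 96 h against 72 h the brighter set fell by 0.86 ± 0.29 (adjusted p = 0.042) and the other stood at 0.57, which did not pass (adjusted p = 0.0639). The call on the brighter set was lost in 8 of 16 omissions of 1 array, with an adjusted p of up to 0.252. At 96 h against 18 h the differences were -1.05 ± 0.26 and -1.78.

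ADGRG2, the adhesion receptor, was close to its 0 h level at 18 h and 17.8-fold below it by 72 h. It read 11.49, 10.73, 10.70 and 11.18 at 0 h, 11.35, 10.52 and 10.46 at 18 h, 9.56, 9.61 and 9.69 at 36 h, 7.90 and 7.50 at 53 h, 6.97 and 6.78 at 72 h, and 7.15 and 7.03 at 96 h. The 18 h arrays overlapped those of 0 h, although each of the 3 same-numbered pairs was lower at 18 h (by log2 differences of -0.14, -0.21 and -0.24), and all later arrays were lower than every 0 h array. Its changes were -0.25 and -1.40 at 18 h and 36 h (SE 0.22), then -3.33, -4.15 and -3.94 at 53 h, 72 h and 96 h (SE 0.25), 15.3-fold at 96 h. By limma it fell at 36 h against 18 h by 1.16 ± 0.24 (SE, adjusted p = 0.00153) and at 53 h against 36 h by 1.92 ± 0.27 (adjusted p = 0.000432). The steps at 72 h (-0.83 ± 0.29, adjusted p = 0.0712) and 96 h (0.21, adjusted p = 0.641) did not pass.

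CAV1, the caveola coat protein, was lower by a small and repeatable amount. Its brighter probe set read 13.68, 13.74, 13.70 and 13.80 at 0 h, 13.25, 13.40 and 13.40 at 18 h, 12.87, 12.79 and 12.84 at 36 h, 12.90 and 12.96 at 53 h, 13.04 and 13.01 at 72 h, and 13.08 and 12.87 at 96 h. The second read 12.93, 13.06, 13.0 and 13.35 at 0 h, 12.42, 12.57 and 12.75 at 18 h, 12.02, 11.87 and 11.95 at 36 h, 11.98 and 11.90 at 53 h, 12.02 and 12.16 at 72 h, and 11.98 and 11.97 at 96 h. On both sets every doxycycline array was below every 0 h array, and the arrays of 36 h and later lay close together. The changes were -0.38, -0.89, -0.80, -0.70 and -0.75 on the brighter set (SE 0.057 with 3 arrays and 0.064 with 2), 1.68-fold at 96 h, and -0.51, -1.14, -1.15, -1.0 and -1.11 on the other. At 36 h against 18 h they fell by 0.52 ± 0.061 (SE, limma adjusted p = 2e-05) and 0.63 (adjusted p = 0.000296), and no later step of the brighter set passed.

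TSPAN8, the tetraspanin, depended on which replicate was read. It read 9.07, 6.33, 6.35 and 7.03 at 0 h, 9.96, 6.82 and 6.83 at 18 h, 9.21, 6.02 and 6.43 at 36 h, 5.72 and 5.17 at 53 h, 3.53 and 3.56 at 72 h, and 2.96 and 3.40 at 96 h. The first value of each of the first 3 times is replicate 1, which stood above the mean of replicates 2 and 3 by 2.73, 3.13 and 2.99. By the mean size of this offset, 2.95, TSPAN8 ranked 8 of 7304 genes, and 59 genes differed by at least 1 in the same direction at all 3 times. The arrays of 53 h, 72 h and 96 h were lower than every earlier array, and those of 72 h and 96 h lay under log2 4, the lower limit taken here for a level, since no detection calls were used. TSPAN8 was therefore at least 9.16-fold lower at 72 h and at 96 h than at 0 h, or at least 5.94-fold without replicate 1 at 0 h. Its fitted changes were 0.67, 0.027, -1.75, -3.65 and -4.01 (SE 0.89 with 3 arrays and 1.01 with 2), and without replicate 1 at the first 3 times they were 0.26, -0.34, -1.12, -3.02 and -3.39, with an SE of 0.24. For replicates 1, 2 and 3, the 18 h array exceeded the 0 h array of the same number by 0.88, 0.49 and 0.48. It was at least 14.6-fold lower at 96 h than at 18 h, or at least 7.10-fold without replicate 1 at 18 h. The 72 h arrays were at least 2.73-fold lower than those of 53 h. This step did not pass by limma with all arrays (adjusted p = 0.298) and passed without the 3 replicate 1 arrays (adjusted p = 0.00037). Its size was the same in both fits, and its SE was 1.16 in the first and 0.27 in the second. The second fit leaves 18 h and 36 h with replicates 2 and 3 alone. These may not be separate cultures, so its SEs and p-value may understate the spread.

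**Figure D2:**
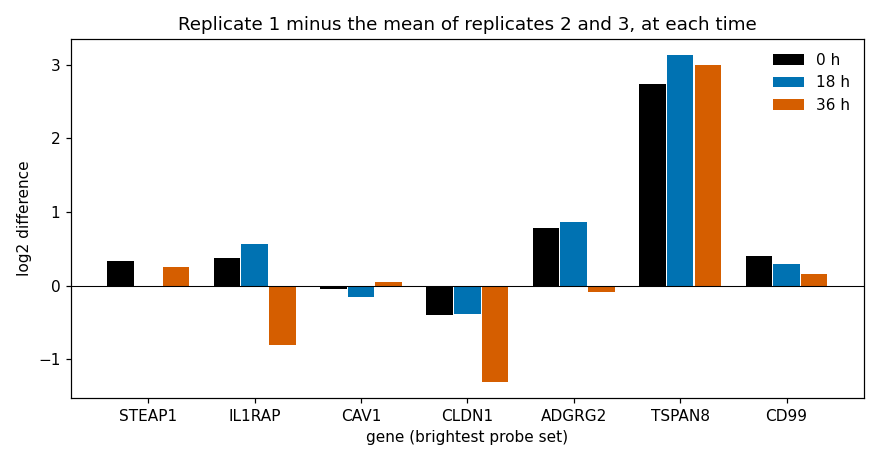
Difference between replicate 1 and the mean of replicates 2 and 3 (y axis, log2) for the brightest probe set of each of the 7 genes (x axis), with 1 bar each for 0 h, 18 h and 36 h. The TSPAN8 bars reach 2.73, 3.13 and 2.99, and the only other bar above 1 in size is that of CLDN1 at 36 h, at -1.30.

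CLDN1, the claudin, had the largest change of the 7 at 18 h. It read 7.92, 8.38, 8.25 and 8.58 at 0 h, 5.08, 5.50 and 5.44 at 18 h, 3.84, 5.20 and 5.08 at 36 h, 5.13 and 5.18 at 53 h, 4.80 and 4.58 at 72 h, and 3.85 and 3.71 at 96 h. Every doxycycline array lay more than 2 log2 units under the lowest 0 h array. The changes were -2.94 and -3.57 at 18 h and 36 h (SE 0.27), then -3.12, -3.59 and -4.50 (SE 0.31). Both 96 h arrays were under log2 4, so that CLDN1 was at least 19.4-fold lower at 96 h than at 0 h. No single step after 18 h passed, with -0.63 ± 0.29 at 36 h (SE, limma adjusted p = 0.0931) and at least 1.61-fold lower at 96 h than at 72 h (adjusted p = 0.073). It was at least 2.53-fold lower at 96 h than at 18 h. CLDN1 and IL1RAP lie near each other on chromosome 3, with TMEM207 as the 1 gene wholly between them in RefSeq (GRCh38.p14).

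**Figure D3:**
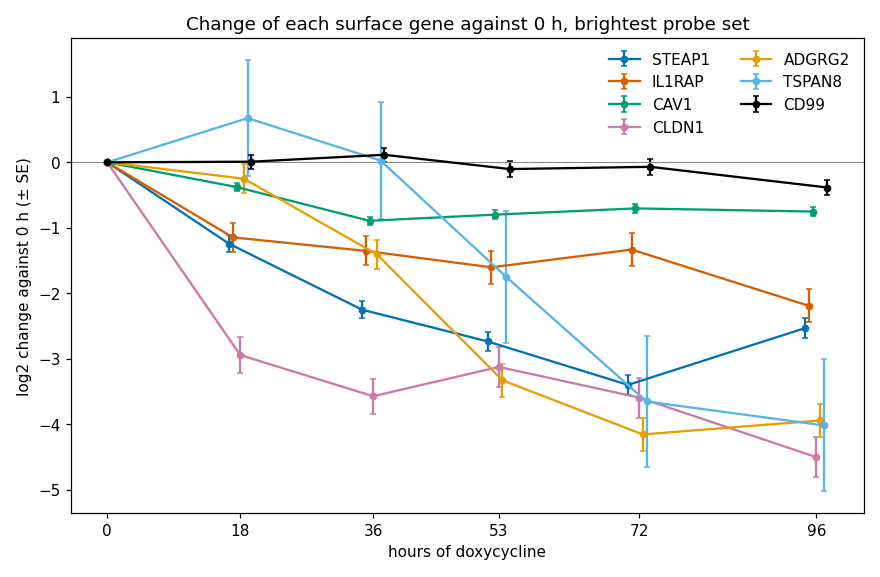
Log2 change of each gene against 0 h (y axis, mean of the time minus mean of 0 h on the brightest probe set, error bars ± SE of the limma fit) by hours of doxycycline (x axis, points shifted slightly sideways). CLDN1 is at -2.94 by 18 h, ADGRG2 at -0.25 by 18 h and -4.15 by 72 h, and CD99 never passes -0.38.

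The genes thus differed in when their change took place. On the brightest probe sets the change at 18 h was 52.3% of that at 96 h for IL1RAP, 50.2% for CAV1 and 49.2% for STEAP1. On the second probe sets it was 17.0% for IL1RAP and 45.5% for CAV1, so that IL1RAP was early on one of its sets and late on the other. It was 6.34% for ADGRG2, and the CD99 mean at 18 h was level with 0 h. For CLDN1 and TSPAN8, under log2 4 at 96 h, no share is given. CLDN1 stood at -2.94 by 18 h, and the TSPAN8 mean then lay above that of 0 h. These shares are a description with no test.

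Between doxycycline times, the 36 h step held 3 falls among the 7 genes (STEAP1, CAV1 and ADGRG2) by limma at an adjusted p of 0.05, beside 22.9% of all genes. The 53 h step held 1 fall (ADGRG2) beside 7.23% of all genes, and the 72 h step 1 fall (STEAP1) beside 11%. The 96 h step held 1 fall (IL1RAP) beside 10.1% and 1 rise (STEAP1) beside 17.1%. Each step is the difference of 2 changes against 0 h that were known when the genes were chosen, so the p-values set the size of a step against the spread of arrays and are no independent evidence. At 96 h against 18 h all 7 passed in the downward direction, beside 30.0% of all genes, and nothing is read from that count. The median difference was -1.28, against -0.11 over all genes, with STEAP1 at -1.28 ± 0.16 (SE), CAV1 at -0.37 ± 0.068 and ADGRG2 at -3.69 ± 0.27.

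With the arrays of 0 h, 18 h and 36 h fitted alone and their replicate number as a block, TSPAN8 (adjusted p = 0.00585, lower in 3 of 3 pairs) and CLDN1 (adjusted p = 0.0436) also fell at 36 h against 18 h, which brought the count to 5. This fit was added after seeing the data. The share of all genes it called was not counted, so nothing is read from that count. With the block over all arrays the adjusted p was 0.463 for TSPAN8 and 0.0712 for CLDN1, and without replicate 1 at the 3 early times it was 0.0807 and 0.097, so both calls rest on that fit. In it the SE of the TSPAN8 step was 0.13, against 0.95 for all arrays without the block.

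**Figure D4:**
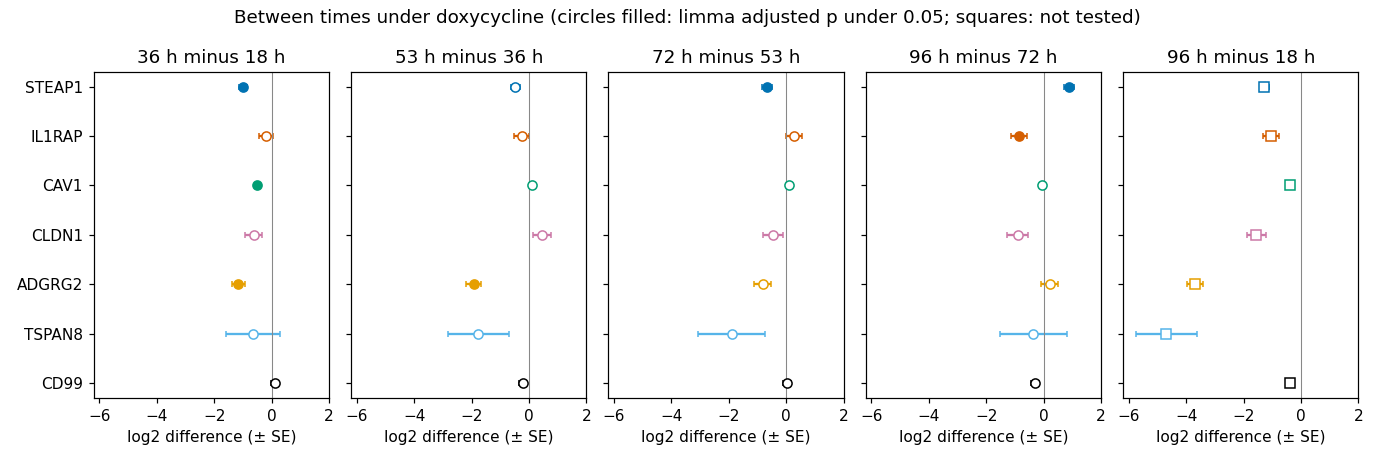
Log2 difference between successive doxycycline times, and between 96 h and 18 h, later minus earlier (± SE of the limma fit), for the brightest probe set of each gene. Filled circles mark steps where the limma adjusted p was under 0.05. Squares are for 96 h minus 18 h, labelled as not tested because nothing is read from its calls. The ADGRG2 step at 53 h (-1.92) and the STEAP1 rise at 96 h (0.87) stand clear of 0, and all 7 genes are below 0 at 96 h against 18 h.

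Likeness was taken as Pearson's r across the 16 arrays, which share their times and clone, so it describes a pattern and has no p. STEAP1 was most like PKP1 (r = 0.99), a desmosome protein, DCLRE1A (0.99), a DNA cross-link repair nuclease, and MRM3 (0.98), a mitochondrial RNA methyltransferase. IL1RAP was most like HIPK1 (0.95), a nuclear kinase, FAS (0.94), a death receptor, and LIN7C (0.91), a polarity scaffold. CAV1 was most like UTP20 (0.99), a ribosome assembly factor, SRSF7 (0.98), a splicing factor, and LARP4 (0.98), an RNA-binding protein. CLDN1 was most like LIN7C (0.98), IMP3 (0.98), a nucleolar protein, and ETF1 (0.96), a translation termination factor. ADGRG2 was most like PRKCB (0.99), a protein kinase C and known target of the fusion, DLG2 (0.98), a synaptic scaffold, and LRPPRC (0.98), a mitochondrial RNA-binding protein. TSPAN8 was most like SALL2 (0.96), a zinc finger factor, PCDH17 (0.95), a protocadherin, and HTATSF1 (0.94). CD99 was most like PRDX2 (0.92), a peroxiredoxin, ITM2A (0.89) and NEO1 (0.86), a netrin receptor.

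Among the relatives and partners of the 7 genes both directions were present. The lists were drawn up with earlier results of these data known, and most named genes were picked by their p at 96 h. The p-values below thus set the size of a change against the spread of arrays and are no independent evidence. Of 157 listed genes, 122 were on the array with 1 symbol, and 63 passed the filter. Of these, 9 had fewer than 2 of the 0 h arrays at log2 4 or more and so passed through later arrays alone, which ties their direction to the filter, and they are described with no test. Of the other 54, 12 rose and 11 fell at 18 h against 0 h by limma (beside 14.8% and 14.7% of all genes), and 26 rose and 11 fell at 96 h (beside 25.1% and 35.7%). The shares of all genes, here and for the lists below, include genes that passed through later arrays alone, so the sets are unlike. The settings compared further below start from all 63, of which 34 rose and 11 fell at 96 h. Nothing is read from that count, since the filter ties the direction of 9. With no filter at all, 35 of the 122 rose and 25 fell, so the number that fell depends on the filter. The genes added there did not reach log2 4 on 2 arrays. The share of all genes called without the filter was not counted, so nothing is read from these counts. No relative or partner of CD99 was tested, since 1 of 4 was on the array and it did not pass the filter.

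Of the other STEAP genes, 2 were tested and 1 fell at 96 h (beside 35.7% of all genes), or 2 with no filter. STEAP1B, a near relative in sequence, rose by 0.61 at 18 h (limma adjusted p = 0.00977) and fell by 0.99 at 96 h (adjusted p = 0.000249), and whether its probe set also reads STEAP1 RNA was not tested. STEAP3, an iron reductase, fell by 1.5 at 18 h (adjusted p = 0.000179) and was 0.15 above 0 h at 96 h (adjusted p = 0.607).

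Of 6 tested genes of the interleukin-1 system 4 rose at 96 h and 0 fell by limma (beside 25.1% and 35.7% of all genes). With no filter 4 of the list fell. At 18 h 0 passed, or 3 higher and 1 lower with array weights. IL1R1, the receptor that pairs with IL1RAP, passed the filter through later arrays alone. It averaged 6.17 at 96 h and 2.60 at 0 h, at least 4.49-fold higher because 0 h lay under log2 4. IL33, a ligand that signals through IL1RAP, likewise averaged 5.56 at 96 h and 2.63 at 0 h, at least 2.94-fold higher. IL1A, another ligand, rose by 2.73 ± 0.41 (SE, limma adjusted p = 7.99e-05) on its brightest probe set, and was at -0.30 on another, which peaked at 4.88.

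Of 4 tested caveola genes 2 rose and 1 fell at 96 h (beside 25.1% and 35.7% of all genes), or 2 fell with no filter. CAV2, the partner of CAV1 in the coat, fell by 0.70 at 18 h (limma adjusted p = 0.000267) and by 1.16 ± 0.11 at 96 h (SE, adjusted p = 1.63e-06). CAVIN1, which stabilises caveolae, rose by 2.21 ± 0.40 at 96 h (adjusted p = 0.000358), and EHD2, which holds them at the membrane, by 3.31 ± 0.30 (adjusted p = 7.53e-07). CAV1 and CAV2 thus stood below 0 h at 96 h, and CAVIN1 and EHD2 above it.

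Of 5 tested adhesion receptors 2 rose and 1 fell at 96 h by limma (beside 25.1% and 35.7% of all genes). The other 4 that passed the filter, ADGRG1, ADGRL2, ADGRB2 and ADGRG6, did so through later arrays alone. ADGRG1, a close relative of ADGRG2, averaged 2.58, 2.59, 2.58, 2.55, 4.19 and 7.49 at the 6 times, at least 11.3-fold higher at 96 h than at 0 h. ADGRL2, a latrophilin, averaged 6.94 at 96 h and 3.71 at 0 h. ADGRB2, a brain angiogenesis inhibitor receptor, averaged 4.21 at 96 h and 2.90 at 0 h, at least 1.15-fold higher. ADGRG6 averaged 3.99 at 96 h (SD 1.95, n = 2) and 2.51 at 0 h. Its log2 change at 96 h was 1.48, or 0.11 without replicate 1 at 96 h, so it rested on 1 array. The counts of this list rest on 2 arrays at 96 h, and with no filter 4 of the list fell.

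Of 3 tested claudins and tight junction genes 2 rose and 0 fell at 96 h by limma (beside 25.1% and 35.7% of all genes). The counts of this list rest on 2 arrays at 96 h, and with no filter 3 of the list fell. JAM2, a junctional adhesion molecule that passed the filter through later arrays alone, averaged 5.28 at 96 h and 2.72 at 0 h, at least 2.43-fold higher. Of 13 tested tetraspanins 6 rose and 1 fell at 96 h (beside the same 25.1% and 35.7%), or 3 fell with no filter. CD9, which passed through later arrays alone, averaged 7.84 at 96 h and 3.62 at 0 h, where 3 of 4 arrays were under log2 4, so no fold is given. TSPAN5 rose by 1.77 ± 0.24 (SE, limma adjusted p = 2.5e-05), and CD63, a lysosomal tetraspanin, by 1.21 ± 0.11 (adjusted p = 8.68e-07). TSPAN13 fell by 1.63 ± 0.11 (adjusted p = 3.43e-08), like TSPAN8 in direction.

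Among 21 other surface genes studied in Ewing sarcoma 10 rose and 7 fell at 96 h (beside 25.1% and 35.7% of all genes). Nothing is read from the counts of single lists, here or above. NPY1R, a neuropeptide Y receptor, fell by 2.89 ± 0.21 (SE, limma adjusted p = 1.17e-07). L1CAM, a neural adhesion molecule, rose by 4.09 ± 0.26 (adjusted p = 2.45e-08) and ALCAM, another adhesion molecule, by 1.83 ± 0.18 (adjusted p = 1.93e-06). FGFR1 rose by 1.19 ± 0.12 (adjusted p = 2.33e-06) on its brightest probe set. Another of its probe sets was at 1.18 and another at -0.95.

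**Figure D5:**
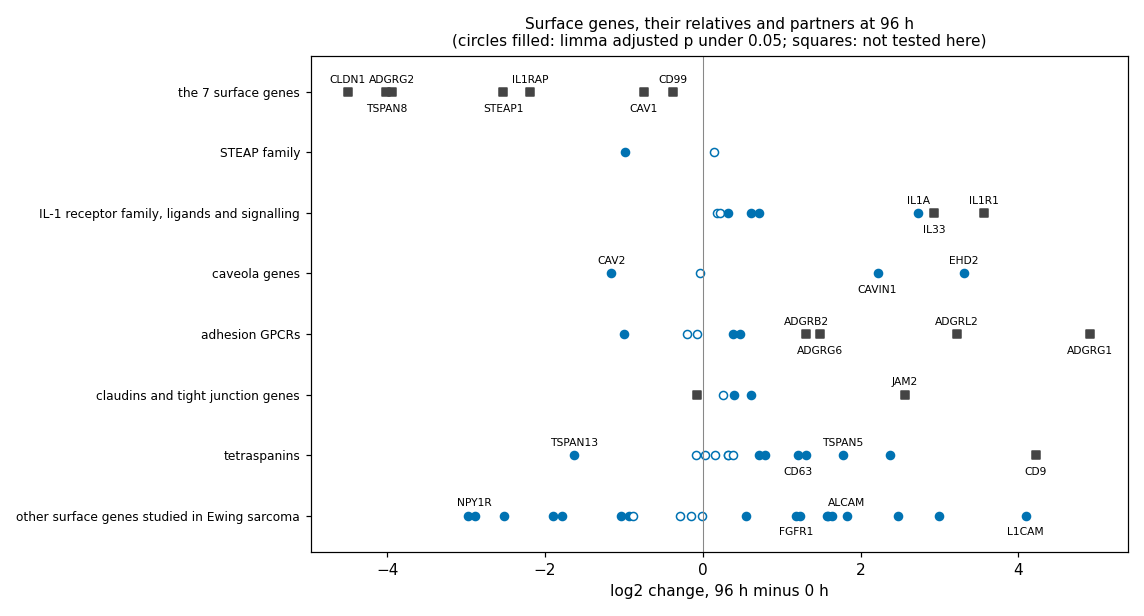
Log2 change at 96 h against 0 h (x axis) of every listed gene that passed the filter and of the 7 genes, 1 row per list, with a circle for each listed gene, filled where its limma adjusted p was under 0.05, and a square for each gene not tested, the 7 and the 9 listed genes that passed the filter through later arrays alone. The 7 genes all lie below 0, and the circles of every list but the claudins and the interleukin-1 genes lie on both sides of it.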

How the data were processed

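Total RNA of A673 clone Asp14 was hybridised to 16 Affymetrix arrays of 22277 probe sets, 62 of them controls, per the labels' protocols. The authors deposited 1 value per probe set and array. GCRMA is named in the submitters' processing notes, with its version and settings not given in the sources used here. The deposited values, 0.388 to 15.2 with upper quartiles of 8.08 to 8.18 on every array, were read as log2 from their range. Scanner files were not used here, so precision is limited by the number of arrays.

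Probe sets were named from the platform annotation, 19070 with 1 symbol, 1043 with several and 2164 with none. Symbols were checked against RefSeq by Entrez identifier (19058 matched, 0 changed). Each gene took its brightest probe set by mean over all arrays. Genes at log2 4 or more on at least 2 arrays were kept, 7304 of 11963. Limma 3.58.1 in R 4.3.3 was fitted to all 16 arrays with 1 mean per time, an intensity trend and 10 residual degrees of freedom, and p-values were adjusted by Benjamini-Hochberg over the 7304 genes with a threshold of 0.05. The other probe sets were fitted in the same way over 10947 probe sets. A group under log2 4 on all its arrays was set to log2 4, and the fold is then given as a bound. Listed genes with fewer than 2 of the 0 h arrays at log2 4 or more are described without a test, a choice made after seeing the data. Limma was also tested on simulated data.

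The genes and the lists of relatives, partners and cell type markers were chosen with earlier results of these data known. In each list up to 4 genes with the smallest adjusted p at 96 h and a log2 change of at least 1 in size are named, and for each of the 7 the 3 genes of highest r. STEAP1B and STEAP3 are named as the only tested members of their list, after their values were seen. Whether replicate numbers pair the arrays was checked by correlating deviations from the time means. The 9 same-numbered pairs among 0 h, 18 h and 36 h gave 0.214 to 0.632, and the 24 pairs with 53 h, 72 h or 96 h gave -0.207 to 0.248. Pairs of replicate 2 with replicate 3 were much alike too. Replicate 3 at 0 h gave 0.550 with replicate 2 at 18 h and 0.508 with replicate 3. Replicate 2 at 0 h gave 0.545 with replicate 2 at 18 h and 0.467 with replicate 3. Among the early arrays the numbers thus set replicate 1 apart, and they do not show which arrays of replicates 2 and 3 belong together. Pairing these by number is an assumption.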

Additional observations from a re-analysis of the deposited data

Results flagged for a closer look

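In 32 probe sets of the named surface genes, the 4 arrays at 0 h were searched for 1 that lies far from the others, which chance gives in about 1 of 20 such groups. There were 2 such values, neither in the 7 genes of the report. TSPAN13 read 13.85 on replicate 1 at 0 h, where the other 3 arrays read 13.64 to 13.66. CD9 read 4.83 on replicate 4 at 0 h, where the other 3 read 3.19 to 3.24.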

How the results depend on the processing

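Leaving single-array omissions aside, of 595 alternative values for the 49 main results 570 kept their size or their side of the threshold and 25 did not. Of 1284 for single genes and lists, 1215 did and 69 did not. The cause of a change was not tested unless the setting itself removes arrays or genes. With probe sets averaged, the CAV1 log2 changes against 0 h were -1.02, -0.97, -0.85 and -0.93 at 36 h, 53 h, 72 h and 96 h, those of IL1RAP were -0.76, -2.09 and -2.03 at 18 h, 53 h and 72 h, and 1 of the 7 genes was called at 96 h against 72 h. With arrays centred, the CAV1 log2 change at 72 h was -0.59. With replicate 1 left out at 0 h, 18 h and 36 h together, a choice made after seeing the data, the IL1RAP log2 change at 36 h was -0.96, and 2, 4 and 4 of the 7 were called at the 53 h, 72 h and 96 h steps, against 1, 1 and 2. With _x_at and _s_at probe sets left out, 7 listed genes rose and 5 fell at 18 h, and CLDN1 and CD99, which have no other probe set, could not be tested. There FGFR1 was at -0.95 at 96 h, the reverse of its brightest set, while a further FGFR1 set among those left out was at 1.18. IL1A was there at -0.30 ± 0.28 (SE, limma adjusted p = 0.379), which did not pass, on a probe set that peaked at 4.88. With replicates 2 and 3 averaged, 7 listed genes rose at 18 h and 1 of the 7 was called at the 96 h step. With no filter, 25 listed genes fell at 96 h and 1 of the 7 was called at the 96 h step. With array weights 2 of the 7 were called at the 53 h step and 2 at the 72 h step. The replicate block over all arrays gave 2, 2 and 1 at the 53 h, 72 h and 96 h steps, with adjusted p of 0.0193 for STEAP1 at 53 h, 0.0275 for ADGRG2 at 72 h and 0.053 for IL1RAP at 96 h. It kept 46 of 49 main results and 95 of 105 others. In the early arrays with the replicate block, fitted after seeing the data, 5 of the 7 were called at 36 h. Leaving out each array in turn gave log2 changes of -0.86 to -0.65 for CAV1 at 96 h, -3.82 to -3.14 for CLDN1 at 36 h and -2.81 to -2.25 for STEAP1 at 96 h, and counts of 1 to 2, 0 to 2 and 1 to 3 at the 53 h, 72 h and 96 h steps. The share of all genes called was not counted under these other settings, so nothing is read from their counts of the 7 or of the listed genes. With 2 arrays at each late time, steps of the size of the SE cannot be told from 0.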

Other observations

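The genes with the largest replicate 1 offset, taken as the mean over 0 h, 18 h and 36 h of replicate 1 minus the mean of replicates 2 and 3, were of several kinds. Lower in replicate 1 were HSD17B2, a steroid dehydrogenase (-4.04), MME, a surface peptidase (-4.02), NPR3, a natriuretic peptide clearance receptor (-3.52), RGS5 (-3.25), GUCY1A2, a guanylate cyclase subunit (-3.18), COL11A1, a fibrillar collagen (-3.07), and PHACTR2 (-2.73). Higher in replicate 1 were FOS, an AP-1 subunit (3.89), TSPAN8 (2.95) and C7, a complement component (2.85). Of all 7304 genes, 10 differed by at least 2 in the same direction at all 3 times. Among the other surface genes of the report, ADGRG2 had offsets of 0.78, 0.87 and -0.088, IL1RAP of 0.38, 0.57 and -0.81, CD99 of 0.41, 0.29 and 0.16, STEAP1 of 0.33, -0.021 and 0.25, and CAV1 of -0.045, -0.15 and 0.051, at 0 h, 18 h and 36 h.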
